A study of Homo sapiens with 8 samples.

Results

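The genes described here are 10 members of the BMP and activin branch of the TGF-beta superfamily, taken by name from the deposited tables of gene counts and FPKM (a level scaled for sequencing depth and gene length): the ligand genes BMP2, BMP4 and INHBA, the secreted antagonist genes GREM1 and FST, the inhibitor genes BAMBI and SMAD6, and the target genes ID1, ID2 and ID3. They are 10 of the 25369 genes in the tables, and 9 of them were tested. BMP2 held too few counts. The RNA came from LX-2, an immortalized cell line derived from human hepatic stellate cells, which lay down scar matrix in the injured liver. The cells were wild type and grew on fibronectin-coated polyacrylamide hydrogels, either a soft matrix of 2 kPa, chosen to resemble normal liver, or a stiff matrix of 40 kPa, chosen to resemble cirrhotic liver. The 4 conditions were soft for 2 days, stiff for 2 days, soft for 4 days and stiff for 4 days, with 2 libraries each and 8 in all. Limits of the model were that a single established line was used and that all cells had been grown on tissue culture plastic before they were seeded.

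BMPs and activins are secreted dimers that bind pairs of type I and type II receptor kinases. Receptors for BMPs phosphorylate SMAD1, SMAD5 and SMAD9, receptors for activins phosphorylate SMAD2 and SMAD3, and either group enters the nucleus with SMAD4. ID1, ID2 and ID3, which encode inhibitors of basic helix-loop-helix transcription factors, are the best known early targets of BMP SMADs, and SMAD6 and BAMBI are themselves induced by the pathway and dampen it. In stellate cells BAMBI is known as a brake on TGF-beta signaling, and gremlin and follistatin are extracellular traps for BMPs and activins.

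Totals of 19955975 to 27263935 counts per library stood behind the values. The libraries within a condition were not equally close: the median coefficient of variation between the replicates over the tested genes was 6.99% on the soft and 4.67% on the stiff matrix at 2 days, and 10.3% on the soft and 23.2% on the stiff matrix at 4 days. The 2 libraries of the stiff matrix at 4 days therefore stood apart from each other. For the 9 tested genes, stiffness differences at 4 days that turn on one of them are given without it. Of 10 stellate cell markers, 7 lay above 1 CPM (counts scaled to library size, with TMM factors) in every library, among them VIM and COL1A1, whereas DES, LRAT and DCN reached at most 0.0982, 0.0491 and 0.187 CPM. The summed level of the 10 stellate markers was 2900 to 3140 CPM on the soft and 3490 to 3650 CPM on the stiff matrix at 2 days. At 4 days it was 4890 to 5390 CPM on the soft and 4720 to 6900 CPM on the stiff matrix. The sum was mostly VIM (1970 to 6360 CPM) and COL1A1 (504 to 1020 CPM), and no other marker of the list passed 40.9 CPM. It moved with the time in culture and, at 2 days, also between the matrices without overlap, and its part in the results was not tested. Defining markers of other liver cells were at or near 0 (TTR and CD163 at 0 counts in every library, ALB at up to 0.461, PECAM1 at up to 0.211 and EPCAM at up to 0.27 CPM). The exceptions were SERPINA1 at 4.36 to 10.3 CPM, KRT7 at 9.38 to 19.1 CPM, CD14 at 2.36 to 7.21 CPM, PTPRC at 0.502 to 2.88 CPM and CD68 at 83.8 to 119 CPM. In these bulk libraries fewer cells that express a gene and less RNA per cell cannot be told apart.

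On the FPKM scale, which allows levels of different genes to be compared, the antagonist GREM1 was the most abundant of the 10 genes, with a mean of 237.6 FPKM over the 8 libraries and a place above 98.3% of the tested genes. ID1 followed with a mean of 146.1 FPKM, ID3 with 120.1 FPKM, ID2 with 33.0 FPKM and BMP4 with 15.1 FPKM. INHBA (5.83 FPKM), FST (5.31 FPKM), BAMBI (4.95 FPKM) and SMAD6 (4.73 FPKM) lay close together, and the ranges of these 4 genes over the libraries overlapped. The ranges of GREM1, ID1 and ID3 overlapped too (163 to 329.3, 68.1 to 216.1 and 65.12 to 186.4 FPKM), and the order of GREM1 and ID1 depended on the condition. On the stiff matrix GREM1 was the higher at both days (202.5 against 169 FPKM at 2 days and 300.9 against 88.2 FPKM at 4 days). On the soft matrix ID1 had a level of 199.9 ± 22.8 FPKM against 168.9 ± 8.44 FPKM for GREM1 at 2 days, and 127.3 ± 19.7 against 278 ± 15.4 FPKM at 4 days (SD, n = 2). BMP2, which encodes the other classical BMP ligand of this list, was at 0 counts in 7 libraries and at 1 count in replicate 2 of the stiff matrix at 2 days. A count of 0 allows up to 3 counts, or 0.106 to 0.173 CPM in these libraries, so BMP2 was not detectable at this depth in any condition.

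**Figure D1:**
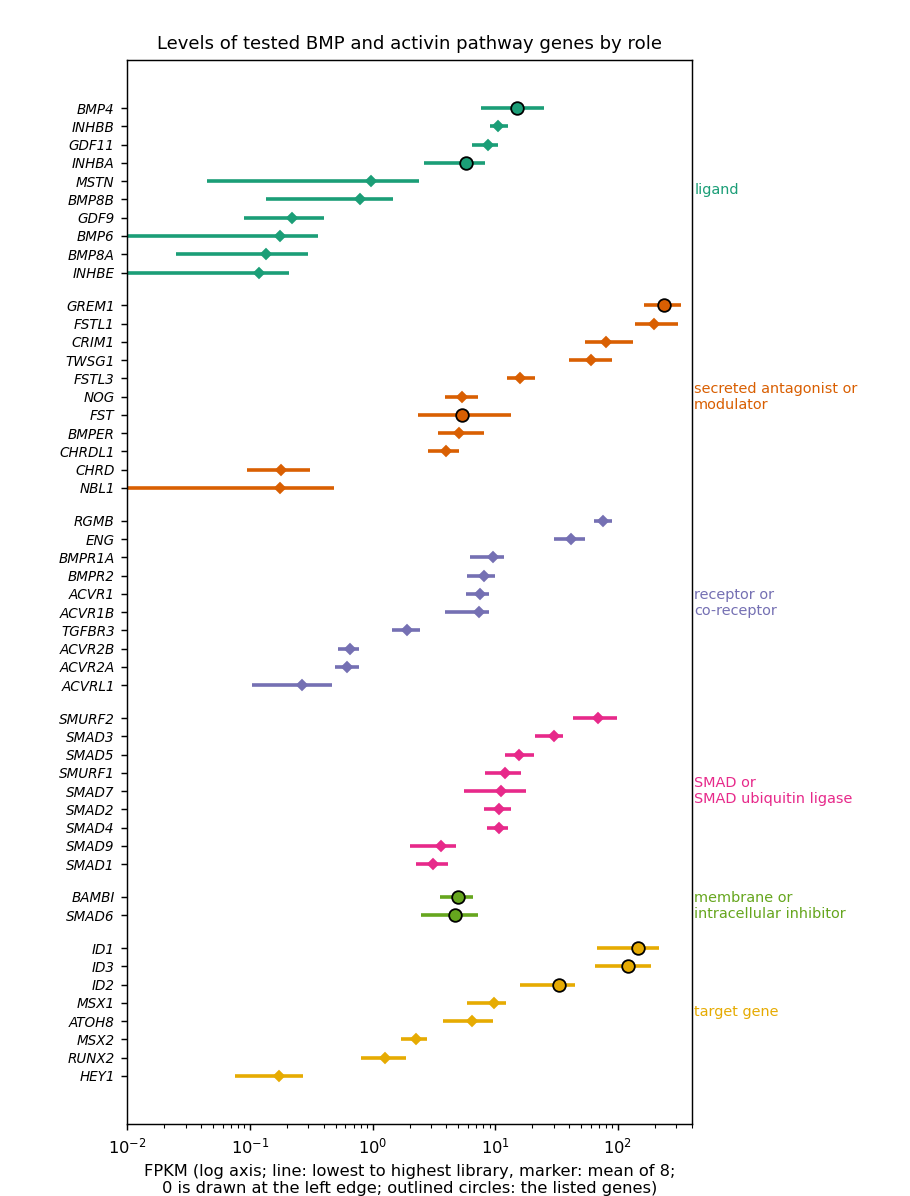
Levels of the tested BMP and activin pathway genes, grouped by role, in FPKM on a log axis. Markers are means of the 8 libraries, lines run from the lowest to the highest library, outlined circles are the genes described here and diamonds the other listed pathway genes. GREM1 (237.6 FPKM), ID1 (146.1 FPKM) and ID3 (120.1 FPKM) lie far to the right of the ligands BMP4 (15.1 FPKM) and INHBA (5.83 FPKM).

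Expression changed with the time in culture. The comparison of 4 days with 2 days asks which of these genes differ once cells have spent longer on a matrix, on each matrix separately. The soft-matrix and stiff-matrix time comparisons share no library, but both come from a single fit to all 8 libraries and share its estimate of spread. In the quasi-likelihood test of edgeR, adjusted over 14570 genes by the Benjamini-Hochberg method with calls at an adjusted p under 0.05, 3 of the 9 genes tested rose on the soft matrix (BMP4, GREM1 and FST) and 3 fell (INHBA, SMAD6 and ID3), where 14.1% of all tested genes rose and 13.3% fell. On the stiff matrix the same 3 genes rose and 5 fell (INHBA, SMAD6, ID1, ID2 and ID3), where 14% of all tested genes rose and 13.7% fell. The median log2 fold change of the 9 genes was -0.2 on the soft and -0.85 on the stiff matrix, beside 0.02 and 0.03 over all tested genes. On the soft matrix libraries of 4 days lay above those of 2 days without overlap for 4 of the 9 genes and below for 4. Of all tested genes 38.5% lay above and 36.7% below. On the stiff matrix 3 of the 9 lay above and 5 below, beside 31.6% and 31.1% of all tested genes.

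**Figure D2:**
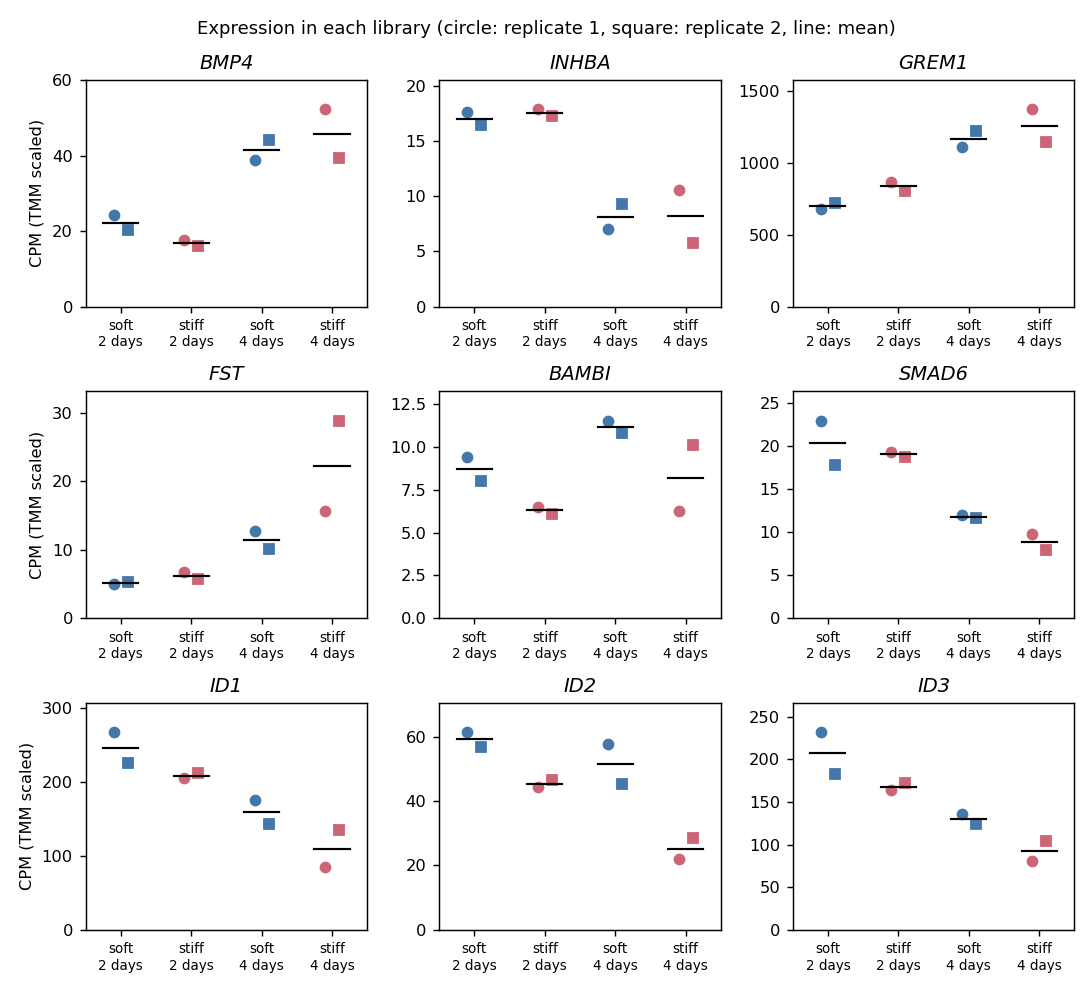
Expression of the 9 tested genes in each library, in CPM with TMM scaling on axes that start at 0. Blue marks the soft and red the stiff matrix, circles are replicate 1, squares are replicate 2, and the black line is the mean of the 2 libraries. BMP4, GREM1 and FST are higher at 4 days in every library, and INHBA, SMAD6, ID1 and ID3 are lower.

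BMP4, a ligand of the BMP receptors and the only BMP ligand of the list that was well detected, had 24.3 and 20.4 CPM on the soft and 17.7 and 15.99 CPM on the stiff matrix at 2 days (replicates 1 and 2). At 4 days it had 39.0 and 44.2 CPM on the soft and 52.3 and 39.4 CPM on the stiff matrix. Every library of 4 days was higher than every library of 2 days. BMP4 rose by a log2 fold change of 0.90 ± 0.18 (SE) on the soft matrix (1.86-fold, edgeR adjusted p = 0.0113) and of 1.45 ± 0.19 on the stiff matrix (2.72-fold, adjusted p = 0.00273). The 2 effects differed by 0.55 ± 0.26 on the log2 scale with a 95% interval of -0.05 to 1.14, which was not called (adjusted p = 1). The gene lies at chr14:54416454-54425479 on the minus strand of GRCh37, and an unnamed antisense gene overlaps 506 bases of its exons. The same reservation holds for INHBA, GREM1 and ID2, whose exons share 248 bases with INHBA-AS1, 367 bases with GREM1-AS1 and 145 bases with ID2-AS1, because no source used here states whether the counting used strand.

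INHBA encodes the beta A subunit, which pairs with itself to form activin A. Its level was 17.6 and 16.4 CPM on the soft and 17.9 and 17.3 CPM on the stiff matrix at 2 days. At 4 days it was 6.996 and 9.33 CPM on the soft and 10.6 and 5.76 CPM on the stiff matrix, below all libraries of 2 days. INHBA fell by 1.06 ± 0.27 on the log2 scale on the soft matrix (2.09-fold, edgeR adjusted p = 0.0259) and by 1.10 ± 0.28 on the stiff matrix (2.14-fold, adjusted p = 0.0239). FST encodes follistatin, which binds activin and blocks its access to receptors, and it moved the other way. It had 4.93 and 5.25 CPM on the soft and 6.76 and 5.69 CPM on the stiff matrix at 2 days, and 12.7 and 10.1 CPM on the soft and 15.7 and 28.8 CPM on the stiff matrix at 4 days. The highest value, in replicate 2 of the stiff matrix, was well above its partner, but the days did not overlap on either matrix. FST rose by 1.16 ± 0.29 on the soft matrix (2.24-fold, edgeR adjusted p = 0.0239) and by 1.84 ± 0.29 on the stiff matrix (3.57-fold, adjusted p = 0.00531).

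The ratio of INHBA to FST within a library, formed from FPKM so that gene length is taken into account, describes both shifts together. It was 3.45 and 3.02 on the soft and 2.55 and 2.92 on the stiff matrix at 2 days, so the activin subunit transcript exceeded that of its trap in all 4 libraries. At 4 days it was 0.53 and 0.895 on the soft and 0.651 and 0.193 on the stiff matrix, and follistatin transcript was the more abundant in all 4 libraries. GREM1 encodes gremlin 1, which sequesters BMP2, BMP4 and BMP7, and its ratio to BMP4 was 14 and 17.8 on the soft matrix at 2 days, 24.6 and 25.3 on the stiff matrix at 2 days, and 13.1 to 14.5 in the 4 libraries of 4 days. GREM1 transcript was thus in excess of BMP4 transcript in every library, and the stiff matrix at 2 days stood above the other 3 conditions.

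**Figure D3:**
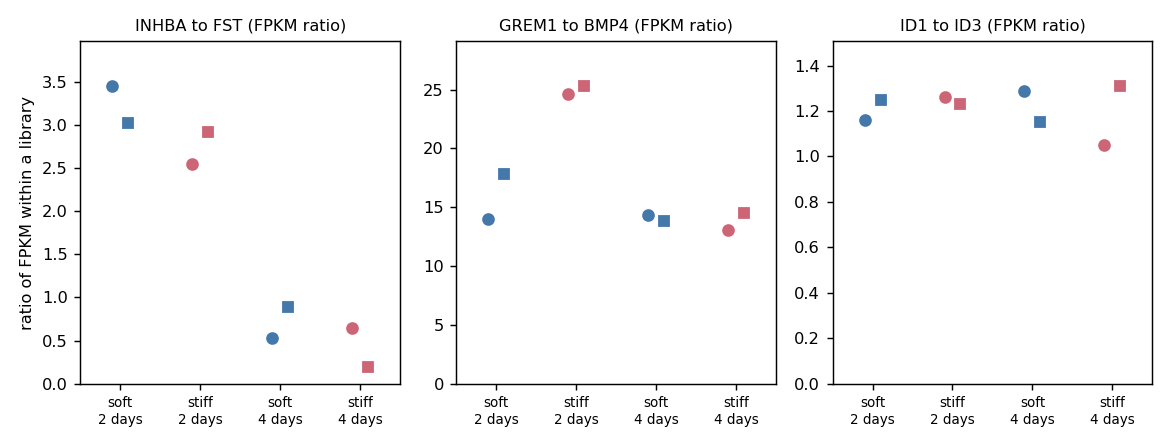
Ratios of FPKM within each library for INHBA to FST, GREM1 to BMP4 and ID1 to ID3, by condition, on axes that start at 0. Blue is the soft and red the stiff matrix, circles are replicate 1 and squares replicate 2. INHBA to FST passes from 2.55 to 3.45 at 2 days to 0.193 to 0.895 at 4 days, while ID1 to ID3 stays between 1.05 and 1.31.

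Because INHBA and FST moved in opposite directions, the bases just before their start sites are shown. They were taken from RefSeq promoters of GRCh38.p14, and coordinates come from an exact and single match to GRCh37. The INHBA stretch (chr7:41742689-41742938, minus strand) lies within the annotated gene, in an intron, and the FST stretch (chr5:52776209-52776455, plus strand) ends where the first annotated exon begins. Capitals mark, on either strand, GGCGCC and CAGAC (motifs bound by SMADs), TGANTCA (the AP-1 motif), TATAAA and CCAAT. Among 35116 RefSeq promoters, 16.4% held GGCGCC, 38% CAGAC, 6.57% TGANTCA, 10.7% TATAAA and 32% CCAAT in the 250 bases before the start. GGCGCC and TGANTCA read alike on both strands.
INHBA: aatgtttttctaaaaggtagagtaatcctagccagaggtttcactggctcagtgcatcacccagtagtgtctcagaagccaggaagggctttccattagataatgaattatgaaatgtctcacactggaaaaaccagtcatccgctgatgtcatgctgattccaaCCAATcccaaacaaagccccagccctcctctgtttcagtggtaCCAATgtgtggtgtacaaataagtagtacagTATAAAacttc
FST: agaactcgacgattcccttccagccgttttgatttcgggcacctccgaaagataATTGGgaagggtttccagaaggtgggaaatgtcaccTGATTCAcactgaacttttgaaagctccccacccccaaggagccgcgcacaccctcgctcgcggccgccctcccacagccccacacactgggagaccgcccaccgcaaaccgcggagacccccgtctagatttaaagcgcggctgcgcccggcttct
The INHBA stretch holds CCAAT at 85 to 81 and at 42 to 38 bases and TATAAA at 11 to 6 bases before the start. The FST stretch holds CCAAT on the opposite strand at 196 to 192 bases and TGANTCA at 160 to 154 bases before the start. This match reads TGATTCA, which is not the AP-1 consensus. These matches are descriptions of the letters and not of binding.

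GREM1 had 676.1 and 723 CPM on the soft and 869 and 807.1 CPM on the stiff matrix at 2 days, and 1112 and 1220 CPM on the soft and 1372 and 1143 CPM on the stiff matrix at 4 days. The days did not overlap on either matrix. It rose by 0.74 ± 0.15 on the log2 scale on the soft matrix (1.67-fold, edgeR adjusted p = 0.0119) and by 0.59 ± 0.15 on the stiff matrix (1.5-fold, adjusted p = 0.026). Without scaling factors the stiff-matrix rise of GREM1 was not called.

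Of the 2 inhibitors SMAD6 fell on both matrices and BAMBI was not called on either. SMAD6, an intracellular inhibitor that blocks BMP receptor SMADs, had 22.9 and 17.8 CPM on the soft and 19.3 and 18.8 CPM on the stiff matrix at 2 days. At 4 days it had 12.03 and 11.6 CPM on the soft and 9.72 and 7.95 CPM on the stiff matrix, with no overlap between the days. SMAD6 fell by 0.79 ± 0.18 on the soft matrix (1.72-fold, edgeR adjusted p = 0.0163) and by 1.10 ± 0.18 on the stiff matrix (2.15-fold, adjusted p = 0.00586). BAMBI, a transmembrane pseudoreceptor that lacks the kinase domain, had 9.40 and 8.02 CPM on the soft and 6.51 and 6.07 CPM on the stiff matrix at 2 days, and 11.5 and 10.8 CPM on the soft and 6.28 and 10.1 CPM on the stiff matrix at 4 days. Its differences between the days, 0.36 ± 0.23 on the soft matrix (95% interval -0.17 to 0.89) and 0.38 ± 0.24 on the stiff matrix (-0.17 to 0.93), were not called (edgeR adjusted p = 0.276 and 0.266), and on the stiff matrix the days overlapped. The FPKM ratio of BAMBI to SMAD6 was 0.593 to 0.825 in the 4 libraries of 2 days and 1.18 to 2.34 in those of 4 days.

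Among the targets, ID1 was at 266.8 and 226.1 CPM on the soft and 204.6 and 211.9 CPM on the stiff matrix at 2 days, and at 175 and 142.6 CPM on the soft and 84.5 and 135.2 CPM on the stiff matrix at 4 days. ID3 was at 231.6 and 182.3 CPM on the soft and 163.5 and 172.7 CPM on the stiff matrix at 2 days, and at 136.4 and 124.2 CPM on the soft and 81.2 and 104.1 CPM on the stiff matrix at 4 days. Both genes were lower at 4 than at 2 days in every library of either matrix. ID1 fell by 0.92 ± 0.23 on the stiff matrix (1.9-fold, edgeR adjusted p = 0.0224), whereas on the soft matrix its difference of -0.63 ± 0.23 missed the threshold (adjusted p = 0.0731), although DESeq2 called it (-0.65, adjusted p = 0.0345). ID3 fell by 0.67 ± 0.17 on the soft matrix (1.59-fold, edgeR adjusted p = 0.0267) and by 0.86 ± 0.18 on the stiff matrix (1.81-fold, adjusted p = 0.0117).

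ID2 fell on the stiff matrix and was not called on the soft matrix. It was at 61.3 and 56.9 CPM on the soft and 44.2 and 46.5 CPM on the stiff matrix at 2 days, and at 57.6 and 45.3 CPM on the soft and 21.9 and 28.4 CPM on the stiff matrix at 4 days. On the soft matrix the days overlapped and the difference of -0.20 ± 0.18 (95% interval -0.61 to 0.21) was not called (edgeR adjusted p = 0.426). On the stiff matrix ID2 fell by 0.85 ± 0.18 (1.8-fold, edgeR adjusted p = 0.0131). The 2 time effects differed by -0.65 ± 0.25 with an unadjusted p of 0.0323, which did not pass adjustment over all genes (adjusted p = 1).

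**Figure D4:**
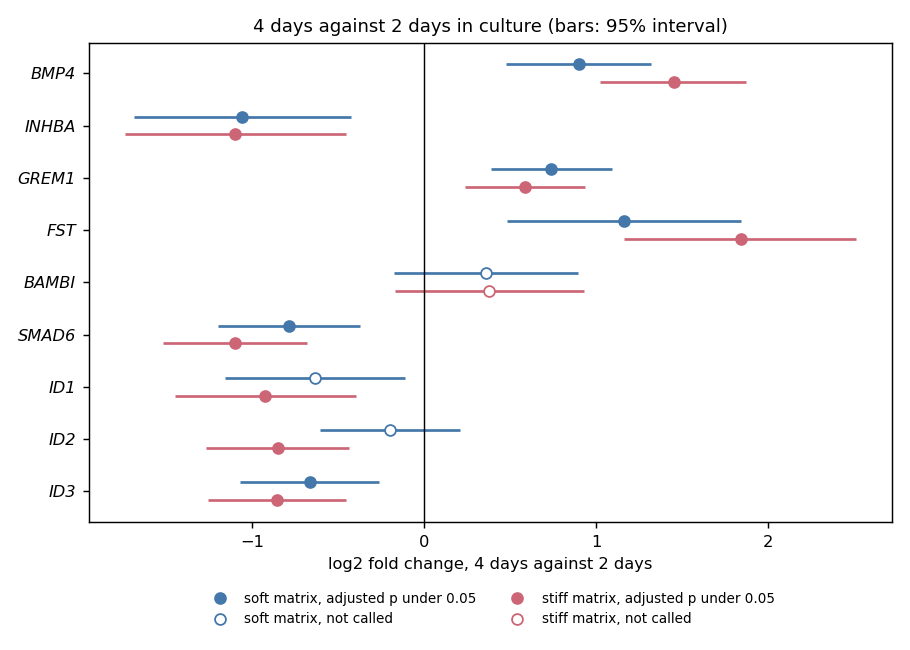
Log2 fold change of 4 days against 2 days for the 9 tested genes, on the soft (blue) and the stiff (red) matrix, with 95% intervals from edgeR's quasi-likelihood fit. Filled circles have an adjusted p under 0.05. BMP4, GREM1 and FST lie to the right of 0 on both matrices, INHBA, SMAD6 and ID3 to the left, and ID1 and ID2 are filled on the stiff matrix (-0.92 and -0.85) but not on the soft matrix (-0.63 and -0.20).

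These time calls depended on single libraries. So did the number of calls over all tested genes, given below with the other settings. The dependence is therefore not particular to the pathway genes described here. On the soft matrix 0 of the 9 genes were called without replicate 1 of the soft matrix at 2 days, without replicate 1 of the soft matrix at 4 days or without replicate 2 of the soft matrix at 4 days, and only SMAD6 without replicate 2 of the soft matrix at 2 days. On the soft matrix ID3 and INHBA were not called when either library of the stiff matrix at 2 days was left out, and ID1 was called when either library of the stiff matrix at 4 days was left out. For time on the stiff matrix 2 genes (BMP4 and FST) were called without replicate 1 and 1 (BMP4) without replicate 2 of the stiff matrix at 2 days, and 0 when the 4 libraries of the stiff matrix were fitted alone, where 0 of all tested genes were called. There GREM1 lost its call when any of the 4 libraries of the soft matrix was left out, INHBA when either of those of 2 days was, and BAMBI gained a call without replicate 1 of the stiff matrix at 4 days. A library alone in its condition was assumed to vary like the other conditions. All 8 leave-out fits kept the direction of each of these 14 called changes.

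INHBA, SMAD6, ID1 and ID3 were the 4 genes of the 9 that were lower at 4 days in all libraries of both matrices, a pattern shown by 26% of all tested genes. BAMBI, ID1, ID2 and ID3 were the 4 that were lower on the stiff than on the soft matrix in all libraries of both days, a pattern shown by 6.14% of all tested genes. ID1 and ID3 had both patterns, as did 2.07% of all tested genes. The FPKM ratio of ID1 to ID3 stayed between 1.05 and 1.31 in the 8 libraries while the summed level of ID1, ID2 and ID3 ranged from 149.2 FPKM in replicate 1 of the stiff matrix at 4 days to 447.3 FPKM in replicate 1 of the soft matrix at 2 days. ID1 made up 45.7% to 51.1% of this sum, ID3 37.4% to 43.7% and ID2 9.71% to 14.3%, with the highest ID2 shares (14.3% and 13.3%) in the 2 libraries of the soft matrix at 4 days.

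Since ID1 and ID3 ran in parallel, the bases before their start sites are shown with the same motifs in capitals. The ID1 stretch is chr20:30192842-30193085 on the plus strand and the ID3 stretch is chr1:23885993-23886242 on the minus strand of GRCh37. Of the 250 bases before the ID1 start, 94 are annotated as exon, 6 of them of ID1 itself, which are left off, and the others of an unnamed antisense gene.
ID1: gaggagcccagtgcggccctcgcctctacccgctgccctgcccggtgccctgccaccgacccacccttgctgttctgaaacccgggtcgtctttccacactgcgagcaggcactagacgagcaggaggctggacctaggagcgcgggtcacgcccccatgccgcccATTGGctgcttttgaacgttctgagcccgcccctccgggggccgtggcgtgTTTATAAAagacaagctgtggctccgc
ID3: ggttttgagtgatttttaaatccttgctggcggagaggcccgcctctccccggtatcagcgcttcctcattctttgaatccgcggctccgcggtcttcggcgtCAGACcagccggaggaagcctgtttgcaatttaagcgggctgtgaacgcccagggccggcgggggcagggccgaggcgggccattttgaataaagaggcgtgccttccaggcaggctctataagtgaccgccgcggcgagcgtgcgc
ID1 holds CCAAT on the opposite strand at 84 to 80 bases and TATAAA on both strands, overlapping, at 33 to 28 and 31 to 26 bases before the start. ID3 holds CAGAC at 147 to 143 bases and no match to the other 4 motifs. The 2 windows share no motif of the 5 searched, which says only that these letters are not in these windows.

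The comparison of the stiff with the soft matrix at the same day asks which of the genes respond to the stiffness of the substrate. None of the 9 genes was called at 2 days, where 0% of all tested genes were, and none reached an unadjusted p under 0.05, where 2.82% of all tested genes did. DESeq2 also called 0 of the 9 at 2 days. At 4 days edgeR's quasi-likelihood test again called 0 of the 9, where 0.247% of all tested genes were called. At an unadjusted p under 0.05, 4 of the 9 passed, FST being higher and ID1, ID2 and ID3 lower on the stiff matrix, where 6.93% of all tested genes passed. DESeq2 called ID2 alone. The median log2 fold change of the 9 genes was -0.24 at 2 days and -0.42 at 4 days, beside 0.01 and 0.02 over all tested genes. At 2 days stiff-matrix libraries lay above soft-matrix ones without overlap for 2 of the 9 genes and below for 5. Of all tested genes 25.7% lay above and 22.4% below. At 4 days 1 of the 9 lay above and 5 below, beside 11.7% and 14% of all tested genes.

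With all 8 libraries, ID2 had the largest stiffness difference of the 9 genes at 4 days. FST exceeded it without replicate 1 of the stiff matrix at 4 days (1.35). FST also did so without replicate 1 of the soft matrix at 4 days (1.16, against -0.84 for ID2). At 4 days the 2 ID2 libraries on the stiff matrix (21.9 and 28.4 CPM) lay below those on the soft matrix (57.6 and 45.3 CPM). This was a log2 fold change of -1.03 ± 0.18 or 2.05-fold, with a 95% interval of -1.45 to -0.62. With an unadjusted p of 0.000468 its edgeR adjusted p was 0.101. DESeq2 gave an adjusted p of 0.000322. Over the fits that left out 1 library each, the ID2 difference was -1.22 to -0.84. At 2 days ID2 was lower by -0.38 ± 0.18 (95% interval -0.79 to 0.03, edgeR adjusted p = 1), again with no overlap of the libraries. ID1 differed by -0.53 ± 0.23 and ID3 by -0.49 ± 0.18 at 4 days (edgeR adjusted p = 0.71 and 0.56), and by -0.24 ± 0.23 and -0.30 ± 0.17 at 2 days. Without replicate 2 of the stiff matrix at 4 days, ID1 was at -0.90 and ID3 at -0.67. Without replicate 1 of that condition ID1 was at -0.22 and ID3 at -0.31. Such a fit leaves 1 library in the condition and takes its spread from the other conditions, so only the sizes are given.

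FST was higher on the stiff matrix at 4 days by 0.97 ± 0.28 (95% interval 0.31 to 1.62), which did not pass adjustment (edgeR adjusted p = 0.418). This difference depended on the library: it was 1.35 without replicate 1 of the stiff matrix at 4 days and 0.47 without replicate 2. SMAD6 differed by -0.42 ± 0.18 at 4 days (edgeR adjusted p = 0.729). It was at -0.56 without replicate 1 of the stiff matrix at 4 days and at -0.27 without replicate 2. BAMBI was lower on the stiff matrix by -0.47 ± 0.23 at 2 days and -0.45 ± 0.23 at 4 days (edgeR adjusted p = 1 and 0.819). Its difference at 4 days was -0.82 without replicate 2 of the stiff matrix of that day and -0.13 without replicate 1.

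For BMP4, INHBA and GREM1 no stiffness difference was detectable at 4 days. BMP4 differed by 0.14 ± 0.18 (95% interval -0.27 to 0.56), INHBA by 0.01 ± 0.28 (-0.64 to 0.66) and GREM1 by 0.11 ± 0.15 (-0.24 to 0.46), with overlapping libraries in each case, and edgeR adjusted p-values of 0.896 to 0.996. These intervals reach at most 0.66 on the log2 scale. At 2 days the BMP4 libraries on the stiff matrix lay below those on the soft matrix (-0.40 ± 0.18, 95% interval -0.83 to 0.02), and those of GREM1 lay above (0.26 ± 0.15, -0.09 to 0.61). When the 4 libraries of 2 days were fitted alone, BMP4, ID2 and ID3 were called lower on the stiff matrix, among 667 of all tested genes.

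**Figure D5:**
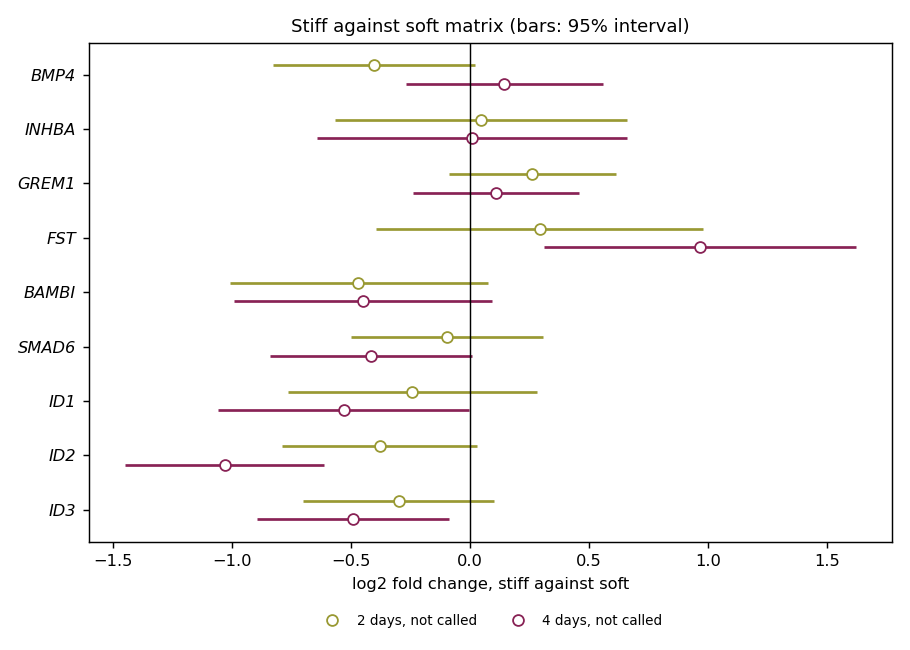
Log2 fold change of the stiff against the soft matrix for the 9 tested genes at 2 days (olive) and 4 days (purple), with 95% intervals from edgeR's quasi-likelihood fit. Open circles have an adjusted p of 0.05 or more, which holds for all of them. ID2 at 4 days (-1.03) and FST at 4 days (0.97) lie farthest from 0.

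Averaged over both days, 0 of the 9 genes were called between the matrices, where 0.426% of all tested genes were, and 5 passed an unadjusted p under 0.05 (FST higher, and BAMBI, ID1, ID2 and ID3 lower on the stiff matrix), where 7.7% of all tested genes did. ID2 came nearest to the threshold with a log2 fold change of -0.71 ± 0.13 (95% interval -0.998 to -0.42, edgeR adjusted p = 0.0783), and DESeq2 called ID2 (adjusted p = 0.000335). How far the stiffness effect changed between the days was also tested, and this change was called for 0 of the 9 genes and for 0% of all tested genes by edgeR, and for 0 of the 9 by DESeq2. At an unadjusted p under 0.05, ID2 passed (-0.65), where 1.95% of all tested genes did. The change for FST was 0.67 ± 0.41 with all libraries (95% interval -0.27 to 1.62). It was 1.06 without replicate 1 of the stiff matrix at 4 days and 0.19 without replicate 2.

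The other genes of the pathway were taken from a list of 64 ligands, receptors, antagonists, SMADs and targets, of which 41 were tested. On the soft matrix 5 of the 41 rose and 3 fell from 2 to 4 days, and on the stiff matrix 4 rose and 6 fell, beside the 14.1% that rose and 13.3% that fell on the soft and the 14% and 13.7% on the stiff matrix over all tested genes. The shares of the list lay near or below these. MSTN, which encodes the activin-like ligand myostatin, had 3 to 13 counts per library at 2 days and 77 to 138 counts at 4 days, and rose by 3.63 ± 0.39 on the soft and 4.58 ± 0.43 on the stiff matrix (edgeR adjusted p = 0.00172 and 0.0014). TWSG1, a secreted BMP-binding modulator, rose by 1.07 ± 0.15 and 0.96 ± 0.15 (adjusted p = 0.0034 and 0.00466). FSTL1, a follistatin-like glycoprotein and the most abundant other antagonist with 196.5 FPKM on average, rose by 0.52 ± 0.16 and 0.97 ± 0.16 (adjusted p = 0.0425 and 0.00558). The ligand gene with the highest mean FPKM outside the 10 genes was INHBB (10.6 FPKM), which encodes the beta B subunit of activin, and its differences of 0.09 ± 0.15 and 0.15 ± 0.15 were not called.

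SMAD7, the inhibitory SMAD of both branches, fell by 0.59 ± 0.14 on the soft matrix (edgeR adjusted p = 0.0171) and by 1.52 ± 0.14 on the stiff matrix (adjusted p = 0.00138). It thus fell on both matrices as SMAD6 did. SMAD2 and SMAD4, a receptor SMAD of activin and the common partner, rose by 0.57 ± 0.15 and 0.48 ± 0.12 on the soft matrix (edgeR adjusted p = 0.026 and 0.0252). On the stiff matrix SMAD4 rose by 0.43 ± 0.12 (edgeR adjusted p = 0.0373) and SMAD2 differed by 0.39 ± 0.15 without a call. This SMAD2 difference was 0.23 without replicate 1 and 0.52 without replicate 2 of the stiff matrix at 4 days. SMAD9 and SMURF1 fell on the stiff matrix by 0.91 ± 0.19 and 0.63 ± 0.17 (adjusted p = 0.0134 and 0.0329). ENG, which encodes the co-receptor endoglin, fell by 0.67 ± 0.14 on the soft and 0.71 ± 0.14 on the stiff matrix (adjusted p = 0.0135 and 0.0112). ENG was the only receptor or co-receptor of the 10 tested that was called. RGMB, a BMP co-receptor with the highest mean level of its class (75.5 FPKM), and the ubiquitin ligase SMURF2 (68.5 FPKM) were not called in any comparison. Genes on the opposite strand overlap 3045 of the 6643 exon bases of RGMB, so its level is uncertain while the strand setting is unknown. Such overlaps also exist for other genes of the list, among them ENG (313 bases) and SMURF1 (735 bases).

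NBL1 on both matrices and BMP6 on the stiff matrix fell to almost no counts. NBL1, a secreted BMP antagonist, had 73 counts at 2 days and 2 counts at 4 days over the libraries of the soft matrix, a ratio of 28.3 with a 95% counting interval of 7.57 to 238, and 45 against 1 on the stiff matrix (ratio 35.6, interval 6.07 to 1440). Its exons share 640 bases with MICOS10 and MICOS10-NBL1 on the same strand, so its counts are uncertain. BMP6, a BMP ligand, had 43 counts on the stiff matrix at 2 days and 2 at 4 days (ratio 17, interval 4.43 to 145). Genes on the opposite strand overlap 212 bases of its exons, so its counts are uncertain too. None of the 5 tested targets besides ID1, ID2 and ID3 was called, and the most abundant of them, the homeobox gene MSX1 (9.81 FPKM), differed by -0.74 ± 0.26 on the soft matrix (adjusted p = 0.0686) and by -0.53 ± 0.26 on the stiff matrix (adjusted p = 0.161). Between the matrices 0 of the 41 were called at either day, and 12 (3 higher and 9 lower) had an unadjusted p under 0.05 at 4 days, where 6.93% of all tested genes did. Of the 5 targets, 3 were among those lower on the stiff matrix. ATOH8, RUNX2 and HEY1 (4 to 18 counts) were lower on the stiff than on the soft matrix in all libraries of both days. That pattern was shown by 6.14% of all tested genes. The targets MSX1 and MSX2 did not show it. Leaving out 1 library left between 1 and 8 of the 8 calls on the soft matrix, the fewest (MSTN alone) without replicate 1 of the soft matrix at 2 days, and between 2 and 10 of the 10 calls on the stiff matrix, the fewest (MSTN and SMAD7) without replicate 2 of the stiff matrix at 2 days.

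The genes whose log2 CPM followed ID1 most closely over the 8 libraries, among 12123 tested genes outside the pathway list whose average log2 CPM was 1 or more, included MLPH (Pearson r = 0.989) and RNF149 (r = 0.986), and 73 of these genes had an r above 0.95. For INHBA they were POLG, ESPL1 and DNMT1 (r = 0.998 each), and 776 had an r above 0.95. The 8 points come from 4 conditions and share their libraries, so these values describe likeness of pattern only.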

How the data were processed

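LX-2 RNA-seq libraries from 4 conditions, with 2 labelled replicates each, were analysed. Replicates are described by the study as independent experiments, without saying which cultures shared a day, so p-values measure the spread between these libraries. The authors cleaned reads with Trim Galore, mapped them to hg19 by STAR 2.7.1a and made the deposited raw counts per gene with HTSeq. The gene annotation and strand setting are not given in the sources used here. The authors also deposited FPKM, whose ratio to the counts, over 11046 genes with at least 50 counts in every library, had a median equal to that of median-of-ratios size factors to 5 significant digits in every library, with an SD over genes of at most 1.87e-15.

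From the counts, 14570 of 25369 genes passed edgeR's filterByExpr. Counts were scaled by TMM (factors 0.8704 to 1.08), and a quasi-likelihood model of the 4 conditions was fitted to 8 libraries (common dispersion 0.0281, prior degrees of freedom 3.86) in edgeR 4.0.16 and R 4.3.3, with Benjamini-Hochberg adjustment at 0.05. This differs from the DESeq2 used by the authors, which was run as an alternative (version 1.42.0, with limma 3.58.1). Standard errors were obtained by dividing the size of each log2 fold change by the root of its F statistic. On simulated counts of 14570 genes with 200 changed at 4 days by 2 on the log2 scale, the edgeR test recovered 194 with 12 false calls and DESeq2 192 with 34. At 2 days, where nothing was changed, edgeR made 0 calls and DESeq2 12. The planted change was larger than any found for the 10 genes in the fit to 8 libraries. The largest of these were 1.84 over time (FST on the stiff matrix) and -1.03 between the matrices (ID2 at 4 days). Recovery of changes of that size was therefore not tested. In the simulation a gene had the same dispersion in every condition and no difference between conditions except the planted one. In the real libraries the spread between replicates differed between the conditions and many genes changed with time. The simulation therefore cannot say how often false calls arise in these data. The 10 genes, the pathway list and the like-gene rule (the 3 highest r for ID1 and INHBA, of which 1 for ID1 is not reported here) were chosen with earlier results of these data known. From the pathway list, up to 3 largest called rises and falls per comparison and the highest FPKM per role are named. The remaining called genes and the other tested targets are also named, after their values were seen. Other settings were RLE or no scaling, other filters, limma voom, limma on log2(FPKM + 1) and log2(FPKM + 0.1), separate fits, replicate blocks and leaving out each library. The intervals of log2 fold changes come from the edgeR fit and include the spread between libraries, while the intervals of count ratios (NBL1 and BMP6) and the 3-count floor cover counting error only. Symbols and coordinates come from GENCODE v44 on GRCh37.

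Same-numbered libraries did not deviate alike. Their deviations from the condition means correlated at -0.0358 between the matrices at 2 days and at -0.49 at 4 days. The other pairs of conditions gave -0.16 to 0.0773. At 4 days replicate 1 on the soft matrix thus deviated in part like replicate 2 on the stiff matrix. A fit with the numbers crossed is given below.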

Additional observations from a re-analysis of the deposited data

Results flagged for a closer look

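SMAD7, the inhibitory SMAD, was higher on the stiff matrix in all libraries at 2 days (61.4 and 56.9 CPM against 45.9 and 42.8 CPM) and lower in all libraries at 4 days (21.8 and 19.6 CPM against 30.9 and 28.0 CPM). SMAD7 and SMAD9 were listed because their libraries moved in opposite directions at the 2 time points. The p-values given here for that change therefore repeat the choice and are no separate test of it. Of all tested genes 1.95% had an unadjusted p under 0.05 for this change and 0% were called. The share of genes with such a reversal was not counted. The change of the SMAD7 stiffness effect was -0.924 on the log2 scale, with an SE of 0.19, an unadjusted p of 0.00143 and an edgeR adjusted p of 1. SMAD9, a BMP receptor SMAD, was at 27.0 and 25.9 CPM on the stiff against 21.5 and 21.3 CPM on the soft matrix at 2 days and at 16.6 and 11.5 CPM against 18.0 and 20.9 CPM at 4 days, a change of -0.768, with an SE of 0.27, an unadjusted p of 0.0219 and an edgeR adjusted p of 1.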

How the results depend on the processing

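With 2 libraries per condition, the 95% intervals given in the text limit what could be seen. For the matrices at 2 days the separate fit called 3 of the 9 genes (BMP4, ID2 and ID3) and the other settings 0. At 4 days DESeq2 called 1 and the replicate block crossed at 4 days 1 (ID2 each), and leaving out a library gave 0 to 4. For the average of the days no scaling factors, DESeq2 and the crossed block called 1 each (ID2), with 0 to 4 over the leave-outs, and for the change of the effect the leave-outs gave 0 to 1. For time on the soft matrix limma on log2(FPKM + 1) without filter called 3 (BMP4, GREM1 and SMAD6), and the leave-outs gave 0 to 7. On the stiff matrix the separate fit called 0 and the leave-outs 1 to 9. The causes of these shifts were not tested. The replicate block called 5 of the 9 genes in place of 6 for time on the soft matrix and 7 in place of 8 on the stiff matrix, and of all tested genes 14 in place of 36 between the matrices at 4 days, 29 in place of 62 for the average of the days, 2626 in place of 3985 for time on the soft matrix and 2543 in place of 4024 on the stiff matrix. It changed no other count of the 9 genes. With the replicate numbers crossed for the stiff matrix at 4 days, a setting chosen after seeing the data, 62 of all genes were called between the matrices at 4 days. Of all tested genes DESeq2 called 28 in place of 0 at 2 days, 164 in place of 36 at 4 days and 218 in place of 62 for the average of the days, and the leave-outs called 0 to 122, 0 to 4676 and 0 to 2968 in these comparisons, 347 to 7941 for time on the soft matrix and 470 to 7826 on the stiff matrix.

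Without scaling factors the median of all tested genes moved by -0.115 for the matrices at 4 days and by -0.132 for time on the stiff matrix. The sign of the INHBA difference between the matrices turned at 2 days without scaling factors (-0.0216) and over the leave-outs (-0.00425 to 0.0967). At 4 days it turned without scaling factors (-0.0901), by limma voom (-0.0293), with the replicate block (-0.0202) and the crossed block (-0.00689), by limma on log2(FPKM + 1) with and without filter (-0.0246) and on log2(FPKM + 0.1) (-0.0408), and over the leave-outs (-0.494 to 0.385). GREM1 at 4 days turned without scaling factors (-0.00267) and over the leave-outs (-0.0197 to 0.244), as did BMP4 at 4 days (-0.0659 to 0.342), SMAD6 at 2 days (-0.268 to 0.0956) and the time difference of BAMBI on the stiff matrix (-0.0091 to 0.686) over the leave-outs. The BAMBI value of 0.686 came without replicate 1 of the stiff matrix at 4 days. None of these differences was called in the edgeR fit to all libraries.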
